A study of Mus musculus with 6 samples.

Results

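The genes described here carry the signal from Toll-like receptors to the transcription factor NF-kappaB and its feedback inhibitors in mouse liver. They are the receptor genes Tlr2 and Tlr4, the coreceptor genes Cd14 and Ly96, the adaptor gene Myd88, the lipopolysaccharide-binding protein gene Lbp, the NF-kappaB subunit gene Nfkb1 and the inhibitor genes Nfkbia, Nfkbiz and Tnfaip3. The members were the array rows (probe sets) whose platform annotation names exactly 1 gene and that gene is among these 10. In all 20 of 34945 such probe sets qualified, covering 9 of 18193 genes. No row under the symbol Nfkb1 was found, and that gene was not analysed here.

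RNA came from the livers of male C57BL/6 mice, an inbred strain, that were placed at 8 weeks of age on a normal diet or on a high-fat diet with 60% of calories from fat. Feeding lasted 12 weeks, with 6 mice per diet. RNA of 2 mice was pooled for each Affymetrix mouse expression array, giving 3 arrays per diet with no further treatment or genotype in either group. The pool is therefore the replicate (n = 3 per diet), p-values measure the spread between pools, and so few arrays limit the precision.

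Values are the authors' log2 expression levels, in which a step of 1 is a doubling. For a gene with several probe sets the one with the highest mean stood for it. It was tested if 3 or more of the 6 arrays placed it over their 40th percentile, the level filter. Differences are high-fat minus normal diet on the log2 scale, given with the standard error (SE) of limma, a linear model with a spread shared across genes. A gene was called at a Benjamini-Hochberg adjusted p below 0.05 over 14071 tested genes. Normal diet 3 stood apart on the main axis of variation among arrays, where it scored -46.2, the other normal diet arrays -15.6 and -12.5, and the high-fat arrays 24.3 to 25.4. All 7 hepatocyte markers passed the filter, of which 0 rose, 1 fell and 6 were not called, with a median difference of 0.051. The marker that fell was Hnf4a, a hepatocyte transcription factor gene (-0.69 ± 0.11, n = 3 arrays per diet, limma adjusted p = 0.0138). The albumin gene Alb lay at log2 levels of 14.37 to 14.49 on the 6 arrays.

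Toll-like receptors recognise microbial molecules. TLR4, with CD14 and MD-2 (the product of Ly96), binds lipopolysaccharide that the plasma protein LBP delivers, and TLR2 binds bacterial lipoproteins. Both pass the signal through the adaptor MyD88 to kinases that release NF-kappaB from its inhibitor IkappaB-alpha, the product of Nfkbia. NF-kappaB then induces its own inhibitors, among them Nfkbia, Nfkbiz (IkappaB-zeta, which also coactivates some targets) and Tnfaip3 (the ubiquitin-editing enzyme A20). In liver the receptors are best known from Kupffer cells, the resident macrophages, while hepatocytes secrete LBP in the acute phase response.

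Of the 9 tested genes 1 was called, Myd88, which was lower under the high-fat diet and was not called with any 1 high-fat array dropped (limma adjusted p from 0.0612 to 0.0671). Over all tested genes 7.60% were called, 5.87% higher and 1.73% lower. Higher calls made up 77.2% of these, and 66.4% after quantile normalization. The diets' arrays stood fully apart for 1 of the 9 genes, again Myd88, against 35.8% of all tested genes. The median difference was -0.26 over the 9 genes and 0.0033 over all tested genes. A further 8 genes were not called, and for Cd14, Lbp and Tnfaip3 whether a call was made depended on 1 normal diet array.

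**Figure D1:**
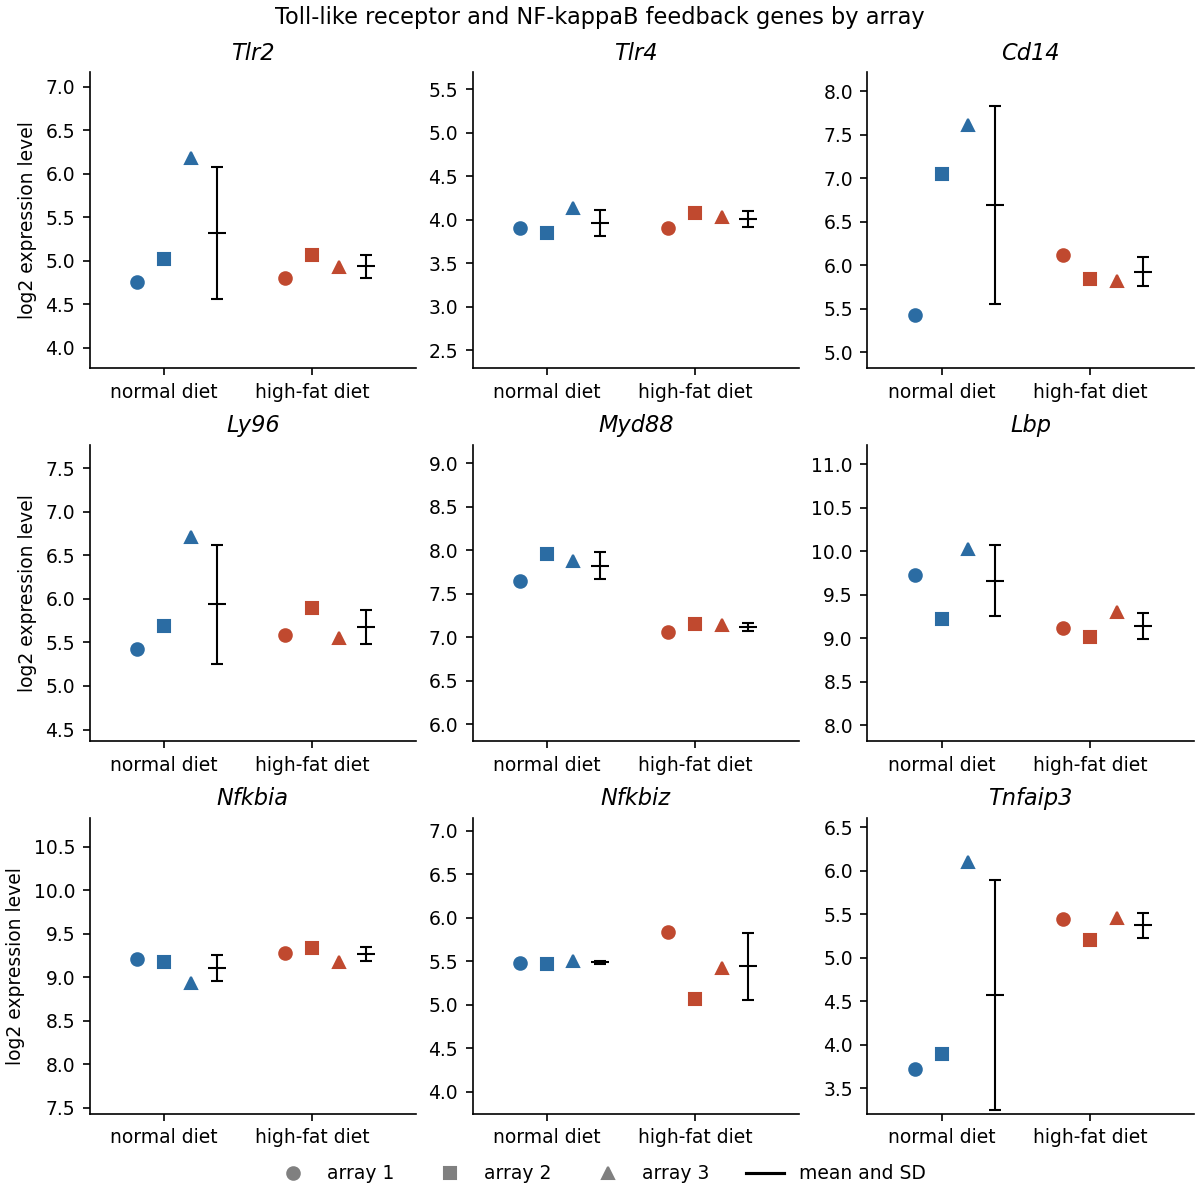
Log2 expression level (vertical axis, spanning the same range of 3.4 log2 units in each panel) of the 9 tested genes on the 3 normal diet arrays (blue) and 3 high-fat arrays (red); bars are the mean and SD of each diet. The Myd88 points separate by diet, and normal diet 3 (blue triangle) is the highest of the 6 arrays for Tlr2, Tlr4, Cd14, Ly96, Lbp and Tnfaip3.

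The DNA before the transcription start was compared for the members that the RefSeq promoter table of the build GRCm38.p6 holds, since NF-kappaB is known to induce several of its own regulators. The table matched 4 of the 9 genes, with 5 starts. The 250 bases before each start were searched on both strands for the NF-kappaB consensus motif. It was found at 3 of the 5 member starts and at 7.25% of all 32851 promoter entries of that length. The stretches lie on the minus strand at chr3:83841609-83841858 for Tlr2, chr9:119340019-119340268 for Myd88, chr12:55492648-55492897 for Nfkbia and chr10:19015411-19015660 for Tnfaip3. They are printed 5′ to 3′ on the gene's strand with the motif in capitals.
Tlr2: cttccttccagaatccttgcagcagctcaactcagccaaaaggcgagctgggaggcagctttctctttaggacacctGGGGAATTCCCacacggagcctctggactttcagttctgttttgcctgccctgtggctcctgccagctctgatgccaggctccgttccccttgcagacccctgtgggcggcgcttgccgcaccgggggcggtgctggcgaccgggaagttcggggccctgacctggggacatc
Myd88: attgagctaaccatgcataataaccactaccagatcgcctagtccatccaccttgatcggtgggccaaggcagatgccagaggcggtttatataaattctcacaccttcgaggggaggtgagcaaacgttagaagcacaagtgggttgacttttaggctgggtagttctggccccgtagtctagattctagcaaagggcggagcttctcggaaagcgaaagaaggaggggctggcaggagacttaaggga
Nfkbia: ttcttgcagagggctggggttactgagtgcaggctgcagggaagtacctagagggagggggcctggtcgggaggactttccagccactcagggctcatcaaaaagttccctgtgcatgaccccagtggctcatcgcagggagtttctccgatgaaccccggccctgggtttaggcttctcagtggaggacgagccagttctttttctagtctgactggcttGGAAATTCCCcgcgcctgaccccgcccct
Tnfaip3: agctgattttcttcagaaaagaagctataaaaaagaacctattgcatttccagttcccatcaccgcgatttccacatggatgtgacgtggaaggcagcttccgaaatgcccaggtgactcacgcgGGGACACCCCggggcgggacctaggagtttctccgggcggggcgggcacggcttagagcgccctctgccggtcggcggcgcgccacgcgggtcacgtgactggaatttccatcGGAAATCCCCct
In Nfkbia the match began 29 bases before the start, and in Tnfaip3 matches began 125 and 12 bases before it. In Tlr2 a pair of overlapping matches began 173 and 172 bases before the start. The Myd88 window and the second Tnfaip3 start, at chr10:19011964-19012213, held no match to these letters. A match describes the letters and is not evidence of binding in these livers.

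Tlr2 had log2 levels of 4.75, 5.02 and 6.18 on normal diet 1, 2 and 3 and of 4.80, 5.07 and 4.93 on high-fat 1, 2 and 3. Normal diet 3 was the high array, and the other 5 lay together whatever their diet. The difference was -0.38 ± 0.34 (SE, n = 3 arrays per diet; limma adjusted p = 0.488), with a 95% interval of -1.17 to 0.40. With normal diet 3 dropped it was 0.046 (adjusted p = 0.866), with normal diet 1 dropped it was -0.67 (adjusted p = 0.218), and with array weights it was -0.16.

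Tlr4 had log2 levels of 3.91, 3.85 and 4.14 under the normal diet and 3.90, 4.08 and 4.03 under the high-fat diet. The diets overlapped, and all 6 values lay close to the level filter of 3.48 to 3.59. The difference was 0.04 ± 0.11 (n = 3 arrays per diet, limma adjusted p = 0.849; 95% interval -0.23 to 0.31). With normal diet 1 or 2 dropped it was 0.0096 and -0.017, with normal diet 3 dropped it was 0.12, and without high-fat 1, 2 and 3 it was 0.091, 0.0017 and 0.025. It was 0.085 after quantile normalization, 0.086 after median centring, 0.12 after cyclic loess and 0.10 with array weights. The other 3 Tlr4 probe sets had levels of 2.23 to 3.18, below the filter on every array.

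Cd14, the lipopolysaccharide coreceptor gene, had log2 levels of 5.43, 7.05 and 7.61 on normal diet 1, 2 and 3 and of 6.11, 5.85 and 5.82 on the high-fat arrays. The normal diet arrays lay on both sides of the high-fat ones, with normal diet 1 the lowest of all 6. The mean ± SD was 6.69 ± 1.13 under the normal diet and 5.93 ± 0.16 under the high-fat diet (n = 3 each). The difference of -0.77 ± 0.49 was not called (limma adjusted p = 0.344; 95% interval -1.92 to 0.38). With normal diet 1 dropped it was -1.40 and called (adjusted p = 0.0154), and with normal diet 3 dropped it was -0.31 (adjusted p = 0.674).

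Ly96, whose product binds lipopolysaccharide together with TLR4, had log2 levels of 5.42, 5.68 and 6.72 under the normal diet and 5.59, 5.90 and 5.55 under the high-fat diet. As for Tlr2, normal diet 3 was high and the other arrays overlapped. The difference was -0.26 ± 0.31 (n = 3 arrays per diet, limma adjusted p = 0.615; 95% interval -0.99 to 0.47). With normal diet 3 dropped it was 0.13 (adjusted p = 0.637), with normal diet 1 dropped it was -0.52 (adjusted p = 0.288), and with array weights it was -0.040.

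Markers of the cells that carry these receptors were read on the same arrays. Of 12 Kupffer cell and macrophage markers 7 rose, 0 fell and 5 were not called, with a median difference of 0.65. Their mean log2 level was 7.32 to 7.51 on the normal diet arrays and 7.80 to 7.93 on the high-fat arrays, so the diets did not overlap. Cd5l, a secreted macrophage protein gene, rose by 0.81 ± 0.11 (n = 3 arrays per diet, limma adjusted p = 0.0109) and Csf1r, the macrophage growth factor receptor gene, by 0.80 ± 0.12 (adjusted p = 0.0117). C1qb, a complement gene of macrophages, rose by 0.70 ± 0.15 (adjusted p = 0.0342). Its other probe sets differed by 0.33 and 0.79 and were not called in the fit of single probe sets (limma adjusted p = 0.153 and 0.0524). Cd5l was not called with any 1 high-fat array dropped (adjusted p from 0.0518 to 0.0593), nor was C1qb (0.0864 to 0.130), and Csf1r lost its call without high-fat 2 or 3 (0.0508 and 0.0561). C1qb was also not called without normal diet 1 or 2 (0.0518 and 0.0671), under quantile normalization (0.0868) or cyclic loess (0.0757). In whole liver, more cells of a type and more RNA per cell cannot be told apart. Of the 5 markers not called, C1qa differed by 0.54, Clec4f by 0.07, Marco by -0.06, Timd4 by -0.15 and Cd163 by -0.63. The 4 receptor and coreceptor genes were not called while 7 of the 12 macrophage markers rose, and a difference between the 2 groups of genes was not tested.

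Of 12 listed monocyte, neutrophil and dendritic cell markers 7 were tested, of which 1 rose (Itgax, the CD11c gene, by 0.72 ± 0.12, limma adjusted p = 0.0146), 0 fell and 6 were not called. Itgam and Mpo were below the level filter, and Ly6c1, Ly6c2 and Ly6g had no row of their own. The mean log2 level of the tested markers was 5.02, 4.96 and 5.25 on normal diet 1, 2 and 3 and 4.82 to 5.02 on the high-fat arrays. The neutrophil genes S100a8 and S100a9 had differences of -0.29 ± 0.23 and -0.59 ± 0.25 (limma adjusted p = 0.447 and 0.174), which were -0.051 and -0.34 without normal diet 3, and the S100a8 difference was -0.13 with array weights and -0.13 without high-fat 1. The dendritic cell gene Cd209a differed by -0.18 ± 0.10 (adjusted p = 0.304). Normal diet 3 had the highest mean of this list, as it had the highest level of Tlr2, Cd14 and Ly96, but the single markers differed. It stood out most for S100a8 (6.37, against 5.64 and 5.65 on normal diet 1 and 2) and S100a9 (6.84, against 6.07 and 6.11). Ccr2 and Cd209a were also highest there by a small margin, while Csf3r and Flt3 were highest on normal diet 1 and Itgax on a high-fat array. The part of these cells in normal diet 3 was not tested.

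**Figure D2:**
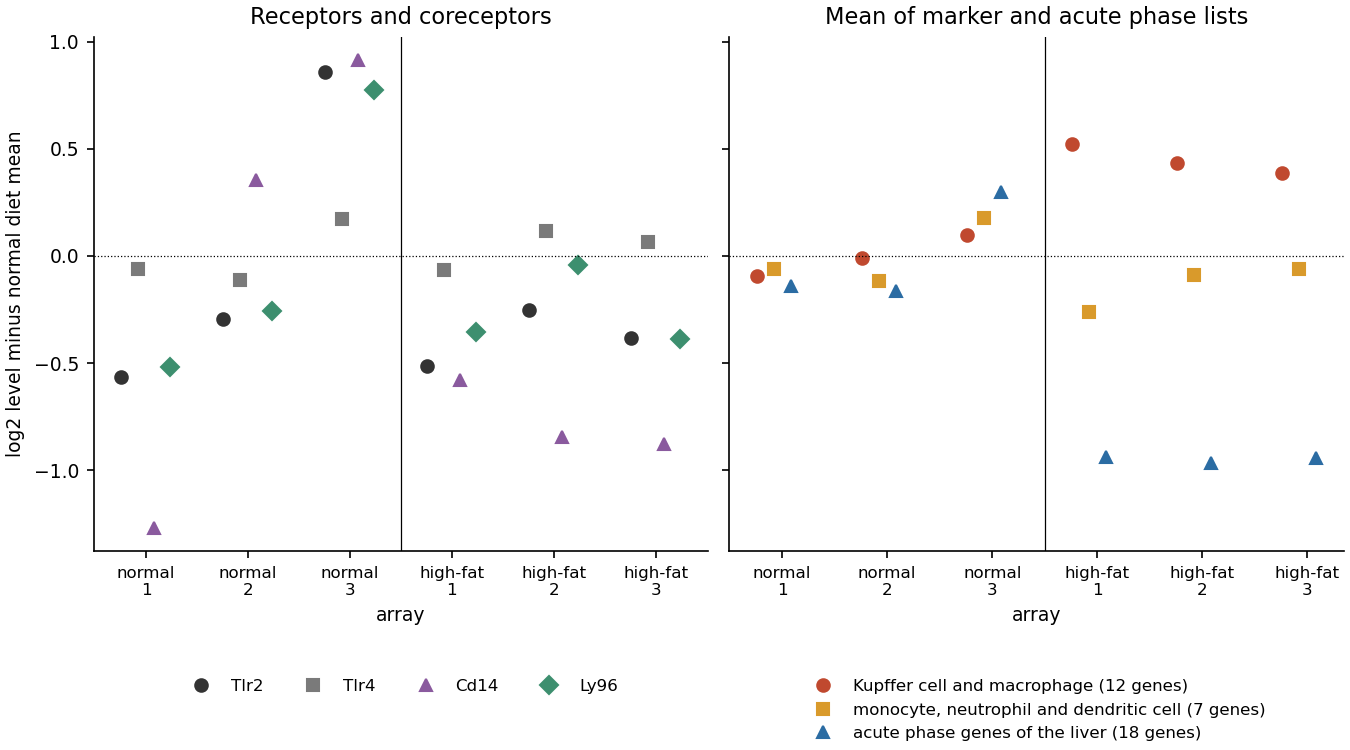
Log2 level minus the normal diet mean (vertical axis) on each of the 6 arrays (horizontal axis) for the receptor and coreceptor genes (left) and for the mean of the macrophage, myeloid and acute phase lists (right). Normal diet 3 is the highest array for the 4 genes on the left, while the macrophage markers lie higher on each high-fat array than on any normal diet array and the acute phase genes lie lower.

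Myd88, the adaptor gene shared by most Toll-like receptors and the interleukin 1 receptor, had log2 levels of 7.65, 7.95 and 7.87 under the normal diet and 7.07, 7.15 and 7.15 under the high-fat diet. Each high-fat array was below each normal diet array, and normal diet 3 was not the highest. Myd88 fell by 0.70 on the log2 scale (-0.70 ± 0.11, n = 3 arrays per diet, limma adjusted p = 0.0136), which is 1.63-fold lower, with a 95% interval of -0.96 to -0.44. The difference was -0.79, -0.64 and -0.68 without normal diet 1, 2 and 3, each called (adjusted p = 0.0145, 0.0323 and 0.0164). Without high-fat 1, 2 and 3 it was -0.68, -0.72 and -0.72 and was not called (adjusted p = 0.0659, 0.0612 and 0.0671). In the other 10 settings tried it was called, with differences from -0.84 to -0.66 and adjusted p from 0.0066 to 0.0340.

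The tested genes nearest to Myd88, after each gene was centred on its own mean over the 6 arrays, were Fgb and Itih4. Fgb encodes the fibrinogen beta chain and Itih4 an inter-alpha-trypsin inhibitor heavy chain, both plasma proteins. Their root mean square distances to Myd88 over the 6 arrays were 0.066 and 0.073 log2 units, against a median of 0.40 over all tested genes. Fgb had log2 levels of 13.69, 13.97 and 14.04 under the normal diet and 13.02, 13.13 and 13.19 under the high-fat diet. Itih4 had 12.66, 12.91 and 12.92 against 12.08, 12.31 and 12.29. For both, as for Myd88, normal diet 1 was the lowest normal diet array and high-fat 1 the lowest high-fat array. Because these genes were picked for closeness on the same 6 arrays, a shared order and a shared diet gap follow from the choice. They are no separate evidence of a link to Myd88.

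Lbp, which encodes the secreted protein that hands lipopolysaccharide to CD14, had log2 levels of 9.73, 9.22 and 10.03 under the normal diet and 9.12, 9.01 and 9.30 under the high-fat diet. Normal diet 2 lay among the high-fat arrays, and normal diet 1 and 3 lay above all of them. The difference of -0.52 ± 0.20 was not called (n = 3 arrays per diet, limma adjusted p = 0.155). With normal diet 2 dropped it was -0.73 and called (adjusted p = 0.0397), and with normal diet 3 dropped it was -0.33 (adjusted p = 0.259). The second Lbp probe set, with levels of 5.22 to 5.64 and 5.02 to 5.44, differed by -0.29 ± 0.16 and was not called when probe sets were tested one by one (limma adjusted p = 0.302).

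Nfkbia, the gene of the inhibitor that holds NF-kappaB in the cytoplasm, has 5 probe sets on the array, and they gave different sizes. The one with the highest mean had log2 levels of 9.21, 9.18 and 8.93 under the normal diet and 9.28, 9.34 and 9.18 under the high-fat diet. Its diets overlapped, and the difference of 0.16 ± 0.11 was not called (n = 3 arrays per diet, limma adjusted p = 0.399; 95% interval -0.11 to 0.42). It was 0.019 after quantile normalization, 0.027 after cyclic loess and 0.069 without normal diet 3.

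The Nfkbia probe set that is the third by mean had log2 levels of 8.06, 8.02 and 7.87 against 8.50, 8.47 and 8.70, with each high-fat array above each normal diet array. It rose by 0.57 ± 0.11, which is 1.49-fold, when the 27399 probe sets above the filter were tested one by one (n = 3 arrays per diet, limma adjusted p = 0.0322). The call ended under quantile normalization (0.43, adjusted p = 0.0661) and cyclic loess (0.44, 0.0582), without normal diet 2 (0.59, 0.0600) and without high-fat 1, 2 or 3 (0.60, 0.61 and 0.50, adjusted p = 0.100, 0.0963 and 0.121). The other 3 differed by 0.39 (the second by mean), 0.62 (the fourth) and 0.35 (the fifth), and none of them was called (adjusted p = 0.0942, 0.0806 and 0.126). The diets' arrays stood fully apart for 4 of the 5 Nfkbia probe sets, against 32.5% of all probe sets tested. Probe sets of 1 gene read on the same arrays are not independent, so this count is not separate evidence of a rise. The mean of the 5 probe sets differed by 0.42 and was not called (adjusted p = 0.0516). The direction was upward in each of the 5 under every setting tried, and the size depended on the probe set.

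**Figure D3:**
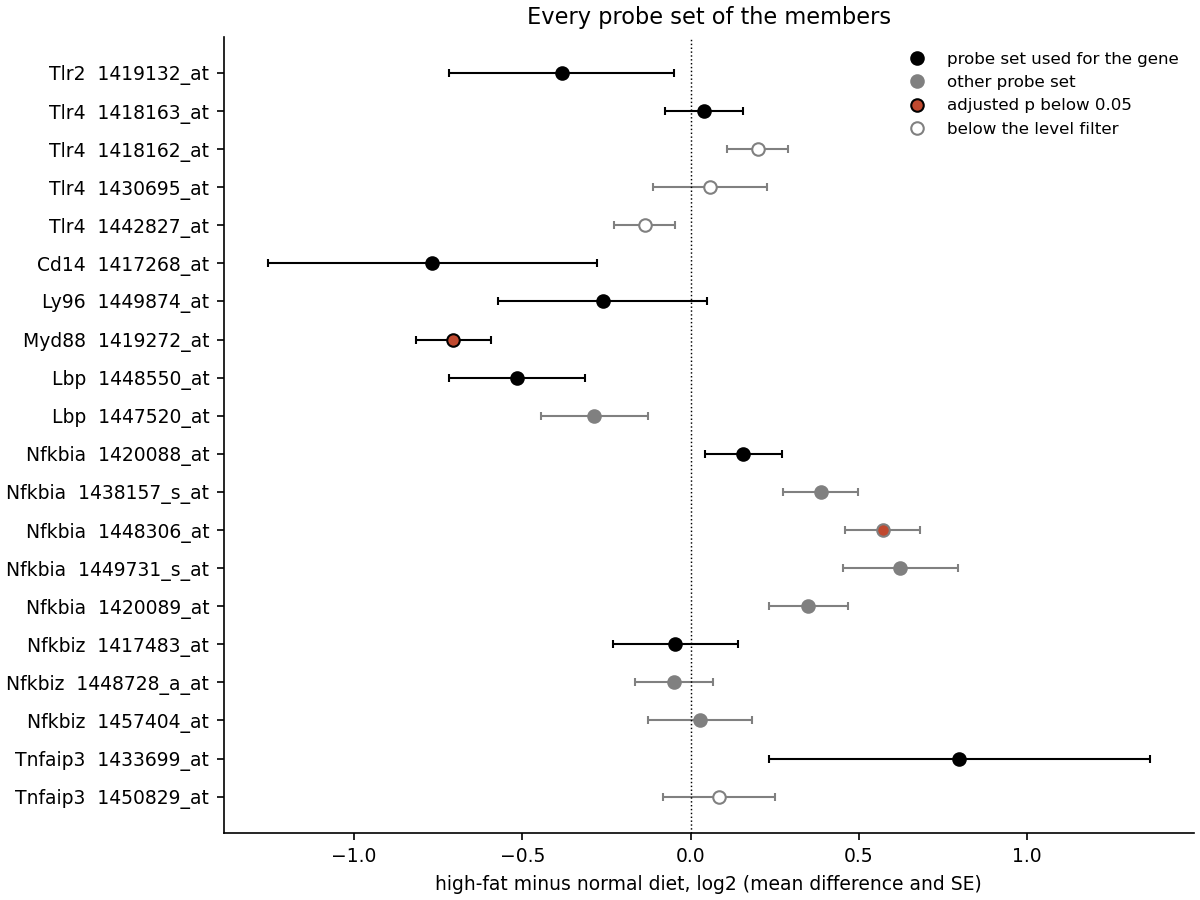
Difference between diets (horizontal axis, log2, high-fat minus normal) with its SE for each of the 20 member probe sets. Of the 16 probe sets tested 2 have an adjusted p below 0.05 (red fill), those of Myd88 at -0.70 and of Nfkbia, the third by mean, at 0.57, and the 4 open points lay below the level filter.

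Over all members, 2 of the 16 probe sets above the filter were called when tested one by one, against 5.33% of all probe sets tested. They are the single probe set of Myd88 and the third by mean of Nfkbia. Tlr2, Cd14, Ly96 and Myd88 rest on 1 probe set each.

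Nfkbiz, the gene of a nuclear IkappaB protein, had log2 levels of 5.48, 5.47 and 5.51 under the normal diet and 5.84, 5.06 and 5.42 under the high-fat diet. It was the only member with the larger spread under the high-fat diet, with an SD of 0.39 against 0.018. The difference was -0.05 ± 0.19 (n = 3 arrays per diet, limma adjusted p = 0.893; 95% interval -0.48 to 0.39). It was -0.24 without high-fat 1, 0.14 without high-fat 2, 0.00049 after median centring, -0.092 after quantile normalization, -0.078 with array weights and -0.023 when its probe sets were averaged. The other Nfkbiz probe sets, at levels of 4.37 to 4.72 and 3.49 to 3.98, differed by -0.05 and 0.03, and those differences changed sign under some settings.

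Tnfaip3, the A20 gene, had log2 levels of 3.72, 3.90 and 6.10 on normal diet 1, 2 and 3 and of 5.45, 5.20 and 5.46 on the high-fat arrays. Normal diet 1 and 2 lay below all high-fat arrays, and normal diet 3 lay above them. The values of normal diet 1 and 2 were close to the level filter, which was 3.54 and 3.53 on these arrays. The SD was 1.32 under the normal diet and 0.14 under the high-fat diet. The difference of 0.80 ± 0.57 was not called (n = 3 arrays per diet, limma adjusted p = 0.393; 95% interval -0.53 to 2.13). With normal diet 3 dropped it was 1.56 and called (adjusted p = 0.00129), and with normal diet 1 or 2 dropped it was 0.37 and 0.46 (adjusted p = 0.695 and 0.658). A second probe set, with levels of 3.02 to 3.60, passed the level filter on 2 arrays only and was not tested, and the mean of both differed by 0.44 (adjusted p = 0.462).

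**Figure D4:**
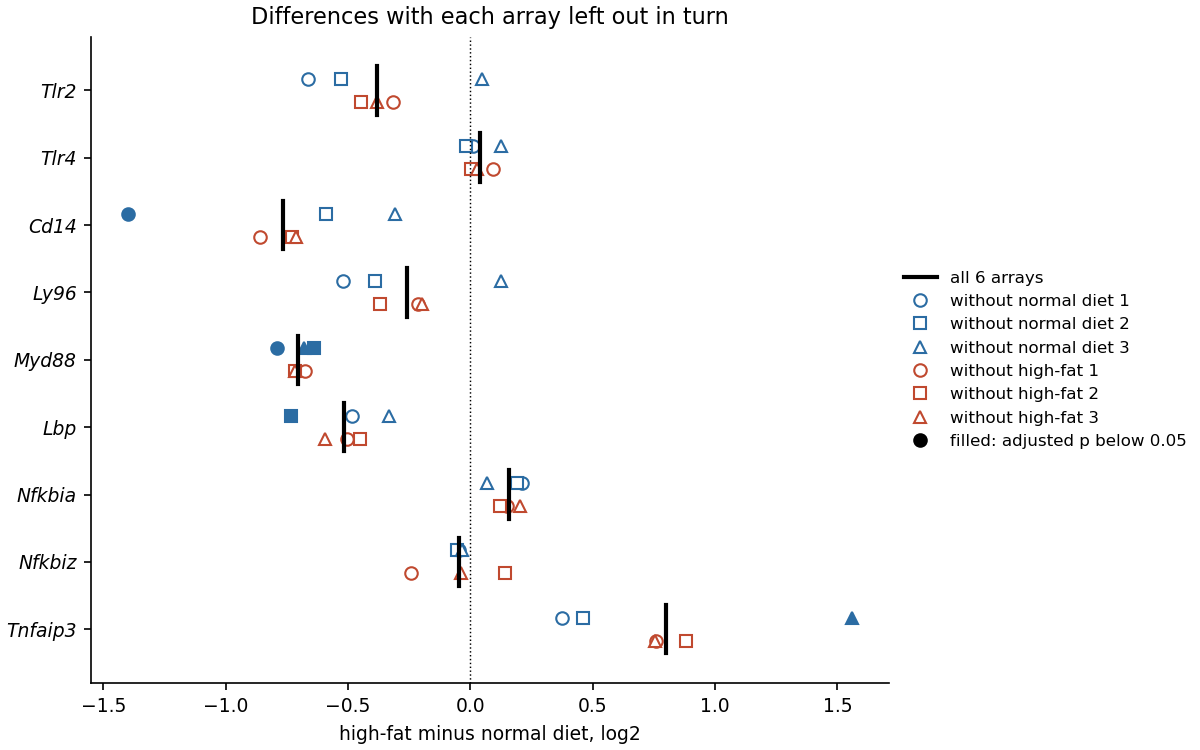
Difference between diets (horizontal axis, log2, high-fat minus normal) of each tested gene with all 6 arrays (black bar) and with each array dropped in turn (blue for normal diet, red for high-fat). Filled points are called: Myd88 without any 1 of the normal diet arrays, Cd14 without normal diet 1, Lbp without normal diet 2 and Tnfaip3 without normal diet 3.

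The normal diet arrays were the more variable ones for most of these genes, as for most genes of the series. The SD was larger under the normal diet for 8 of the 9 genes, as it was for 66.7% of all tested genes. Among the normal diet SDs of all tested genes, those of Tlr2, Cd14, Ly96, Lbp and Tnfaip3 lay at percentiles of 89.1 to 99.6. Those of Tlr4, Myd88 and Nfkbia lay at 44.7 to 47.0, and that of Nfkbiz at 0.99. Normal diet 3 was above both other normal diet arrays for 7 of the 9 genes, against 37.9% of all tested genes, and above all 5 other arrays for 6, against 27.0%. It exceeded both other normal diet arrays by more than 1 log2 unit for 3 of the 9, namely Tlr2 (by 1.15), Ly96 (by 1.03) and Tnfaip3 (by 2.20), which held for 0.505% of all tested genes. These counts were chosen after the values were seen and describe that array. For Myd88 and Nfkbia normal diet 3 was below at least 1 other normal diet array.

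Further genes of the pathway were read by role from 6 lists, of which 78 of 96 genes were tested. In all 8 were called higher and 12 lower, where 5.87% and 1.73% of all tested genes were. Of the 12 lower calls 8 were acute phase genes of the liver, a list with 0 higher calls. The lists were chosen with earlier results of these data known, so the counts only describe them. Dropping high-fat 1, 2 or 3 gave 3, 0 and 0 higher and 4, 4 and 2 lower calls, while dropping normal diet 1, 2 or 3 gave 6, 4 and 8 higher and 15, 11 and 13 lower.

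Among 10 tested genes of other Toll-like receptors and their partners 3 rose, 0 fell and 7 were not called, with a median difference of 0.30. Tlr13 and Cd180, the gene of the receptor RP105, were below the level filter, and Tlr11 had no row of its own. Tlr12 rose by 1.43 ± 0.20 (n = 3 arrays per diet, limma adjusted p = 0.0103), Ly86, whose product MD-1 pairs with the receptor RP105, by 1.19 ± 0.18 (adjusted p = 0.0125) and Tlr1, a partner of TLR2, by 0.57 ± 0.13 (adjusted p = 0.0430). Tlr1 had log2 levels of 3.49, 3.62 and 3.80 against 4.08, 4.15 and 4.41, close to the level filter, and its only probe set was not called in the fit of single probe sets (adjusted p = 0.0524). A second Tlr12 probe set, at 4.24 and 4.02, differed by -0.22 (adjusted p = 0.227 in the fit of single probe sets), and the mean of both by 0.61. Tlr12 and Tlr1 were not called with any 1 high-fat array dropped (adjusted p from 0.0509 to 0.141), Ly86 without high-fat 2 or 3 (0.0523 and 0.0570) and Tlr1 without normal diet 1 or 2 (0.0823 and 0.0881). With high-fat 1, 2 or 3 dropped, 1, 0 and 0 genes of the list were called.

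Of 14 tested adaptor and kinase genes 1 rose and 2 fell, 11 were not called, and they had a median difference of 0.0020. Tirap, the adaptor gene that brings MyD88 to TLR2 and TLR4, had log2 levels of 7.53, 7.55 and 8.11 under the normal diet and 6.72, 6.79 and 6.66 under the high-fat diet. Each high-fat array was below each normal diet array, and Tirap fell by 1.00 ± 0.17 (n = 3 arrays per diet, limma adjusted p = 0.0160). A second Tirap probe set differed by -1.01 (adjusted p = 0.0066 in the fit of single probe sets). Tifa, an adaptor gene upstream of TRAF6, fell by 2.97 ± 0.56 (adjusted p = 0.0243) from levels of 8.06, 8.15 and 10.27 to 5.43, 5.92 and 6.21. Ikbkb, a kinase gene of the complex that marks IkappaB for destruction, rose by 0.45 ± 0.10 (adjusted p = 0.0397). Its call ended with any 1 array dropped (adjusted p from 0.0558 to 0.141), after quantile normalization (0.0889), after cyclic loess (0.0743) and with trend and robust variance (0.0537), and the mean of its 5 probe sets differed by 0.017. Tirap and Tifa were not called with any 1 high-fat array dropped (adjusted p from 0.0647 to 0.0988), so that 0 genes of the list were called in each case. Without normal diet 3 the differences of Tirap and Tifa were -0.81 and -2.25.

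Of 7 tested genes of other NF-kappaB subunits and IkappaB proteins 0 rose, 1 fell and 6 were not called, with a median difference of -0.21. The gene that fell was Bcl3, an IkappaB family member that acts in the nucleus. It had log2 levels of 8.06, 7.91 and 8.83 against 6.67, 6.71 and 6.93, and fell by 1.50 ± 0.23 (n = 3 arrays per diet, limma adjusted p = 0.0131). It was not called with any 1 high-fat array dropped (adjusted p from 0.0613 to 0.0639), and its difference was -1.22 without normal diet 3.

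Of 15 tested further feedback inhibitors 1 rose, 0 fell and 14 were not called, with a median difference of 0.20. Rnf11, a ubiquitin ligase gene whose product works with A20, had log2 levels of 8.47, 8.57 and 8.28 against 9.08, 9.21 and 9.16 and rose by 0.71 ± 0.11 (n = 3 arrays per diet, limma adjusted p = 0.0132). A second strong Rnf11 probe set differed by 0.72, while the one without a suffix used under that alternative differed by 0.22 (adjusted p = 0.204). Rnf11 was not called with any 1 high-fat array dropped (adjusted p from 0.0533 to 0.0687).

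Of 14 tested target genes of NF-kappaB in inflammation 3 rose, 1 fell and 10 were not called, with a median difference of -0.060. Il6, Ccl3, Cxcl2, Sele, Ptgs2 and Traf1 were below the level filter. The chemokine gene Ccl5 rose by 0.85 ± 0.19 (n = 3 arrays per diet, limma adjusted p = 0.0404), the apoptosis inhibitor gene Birc3 by 0.68 ± 0.13 (adjusted p = 0.0229) and the chemokine gene Cxcl10 by 0.48 ± 0.10 (adjusted p = 0.0351), while Cxcl1, a neutrophil chemokine gene, fell by 3.38 ± 0.45 (adjusted p = 0.0094). Another Birc3 probe set differed by -0.03, and the mean of both by 0.32 (adjusted p = 0.0574). Cxcl1 had log2 levels of 9.69, 10.13 and 11.61 under the normal diet, and without normal diet 3 its difference was -2.81. The other Cxcl1 probe sets differed by -3.56 and -1.61 (adjusted p = 0.0080 and 0.0160 in the fit of single probe sets), and the mean of the 3 by -2.85 (adjusted p = 0.0110). Birc3 lost its call without high-fat 2 or 3 or normal diet 2 (adjusted p = 0.0926, 0.0864 and 0.0553), Ccl5 without high-fat 2 or 3 or normal diet 2 or 3 (0.146, 0.142, 0.0879 and 0.0561), Cxcl10 without normal diet 1 (0.0616) or any 1 high-fat array (0.108 to 0.131) and Cxcl1 without high-fat 2 or 3 (0.0508 and 0.0542). The list had 2, 0 and 0 higher and 1, 0 and 0 lower calls without high-fat 1, 2 and 3, 3, 1 and 2 higher calls without normal diet 1, 2 and 3, and 2 lower calls without normal diet 1.

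Lbp belongs with the acute phase genes of the liver, of which 18 others were tested. Among them 0 rose, 8 fell and 10 were not called, with a median difference of -0.61. Their mean log2 level was 12.14, 12.12 and 12.58 on normal diet 1, 2 and 3 and 11.31 to 11.34 on the high-fat arrays. The serum amyloid A genes Saa1, Saa2 and Saa4 fell, with differences of -2.74 ± 0.11, -3.69 ± 0.15 and -1.33 ± 0.23 (n = 3 arrays per diet, limma adjusted p = 1.46e-04, 1.46e-04 and 0.0176). Serpina3n, a protease inhibitor gene, fell by 1.64 ± 0.22 (adjusted p = 0.0099). The fibrinogen genes Fga and Fgb fell, with differences of -0.83 ± 0.12 and -0.78 ± 0.12 (adjusted p = 0.0112 and 0.0131). Probe sets of Saa genes can detect close copies, and the Saa gene behind such a value is uncertain. The list had 3, 4 and 2 calls without high-fat 1, 2 and 3. Serpina3n lost its call without high-fat 2 or 3 (adjusted p = 0.0518 and 0.0507), Fga without high-fat 1 or 3 (0.0523 and 0.0591), Saa4 without high-fat 1 or 3 (0.0726 and 0.0523) and Fgb without high-fat 1, 2 or 3 (0.0641, 0.0610 and 0.0613).

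**Figure D5:**
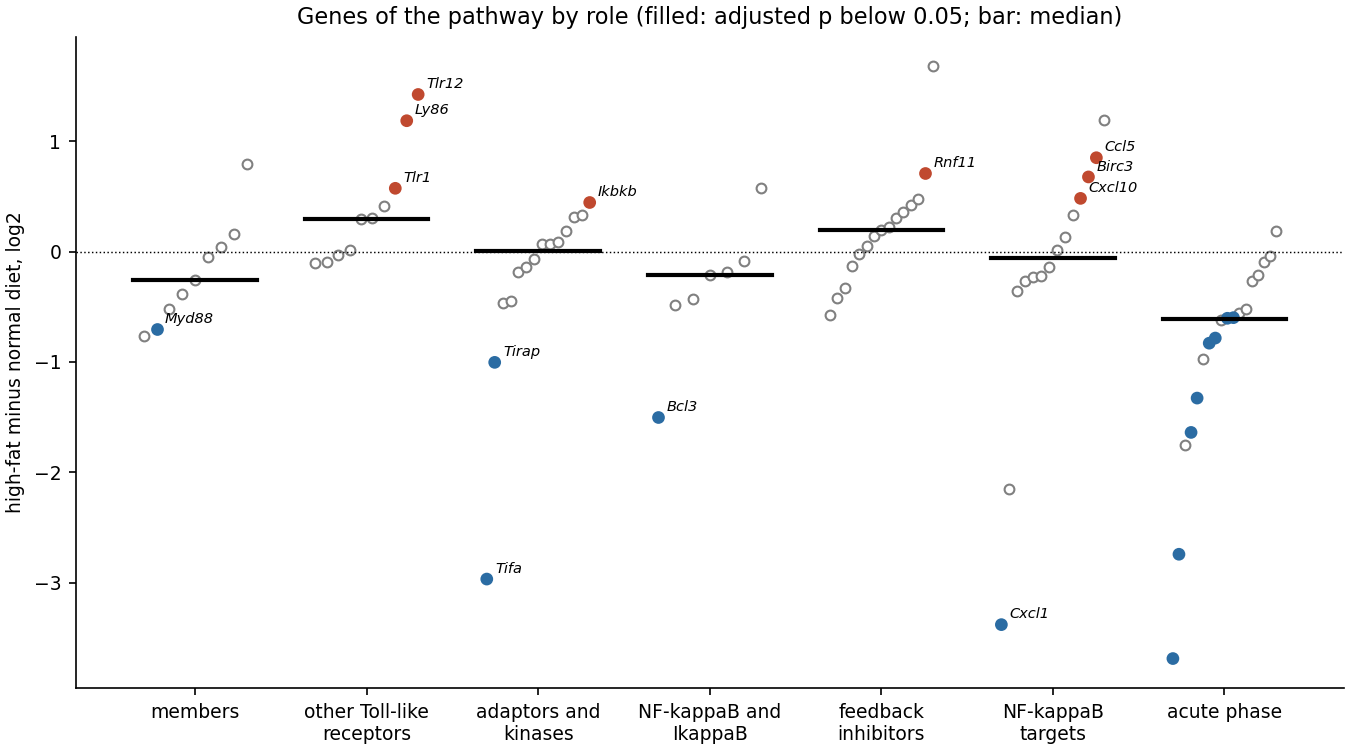
Difference between diets (vertical axis, log2, high-fat minus normal) of each tested gene, grouped by role along the horizontal axis; filled points have an adjusted p below 0.05 (red higher, blue lower) and black bars are medians. Blue points are Myd88, the adaptors Tirap and Tifa, the nuclear IkappaB gene Bcl3, the target Cxcl1 and acute phase genes. Red points are Tlr12, Ly86 and Tlr1 among other Toll-like receptors, the kinase gene Ikbkb, the feedback inhibitor Rnf11 and the targets Ccl5, Birc3 and Cxcl10. Adaptors and kinases, and NF-kappaB targets, thus hold called points on both sides.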

How the data were processed

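Liver RNA was hybridised, for 2 diets, to Affymetrix mouse expression arrays, 3 per diet. Each deposited value is the log2 level of a probe set. Per the submitters' processing notes, the authors used RMA and Affymetrix Expression Console 1.0. RMA corrects background, normalizes by quantiles and summarises probes, and it compresses differences near background. The genome build used by the authors is not given in the sources used here. The table held 45101 probe sets with 0 missing values, of which 64 controls were dropped. The platform annotation gave a single symbol to 34945 of the rest, several symbols to 932, and 9160 stay unnamed here.

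Groups came from the sample titles. The diets were contrasted with limma 3.58.1 under R 4.3.3 (lmFit, eBayes, two-sided) over all 14071 genes above the level filter, with Benjamini-Hochberg adjustment over all of them. The same fit was run on 27399 probe sets one by one. The level filter and probe set choice used all 6 arrays, also when an array was dropped. The script was tested on simulated data. Lists were described by counts and medians, with no set test. Named genes were all members, the called genes of each list up to 6 by smallest p, up to 3 markers of a list by level, and the 2 tested genes nearest to each called member. Hnf4a, Itgax, Ccr2, Csf3r, Flt3, Lyve1, Lrat, Col3a1 and Dcn were named after their values were seen. The members and lists were chosen with earlier results of these data known. Promoter sequences are from RefSeq. Figures were drawn with Python 3.11.15 and matplotlib 3.10.9.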

Additional observations from a re-analysis of the deposited data

How the results depend on the processing

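Over the 9 tested members, 132 of 143 recomputed differences kept their direction and their side of the threshold, 3 passed it, 3 lost it and 5 changed sign. Other level filters, the trend and robust variance and the replicate block leave the difference itself unchanged and could not alter its direction. Most members were not called and count as kept by staying so, and the share kept is therefore no measure of robustness. Members called higher numbered 0, but 1 when every probe set was tested one by one and 0 to 1 with each array dropped, and members called lower numbered 1, but 0 to 2 with each array dropped. Genes of the pathway lists called higher numbered 8, but 5 with a replicate block and 0 to 8 with each array dropped, and those called lower numbered 12, but 2 to 15 with each array dropped. With the replicate block Myd88 was still called (-0.70, adjusted p = 0.0340), and the Nfkbia probe set that is the third by mean was not (adjusted p = 0.0764). The block also ended the calls of Ikbkb (0.0822), Birc3 (0.0526), Cxcl10 (0.0716) and Ccl5 (0.0870), which left 0 higher calls among adaptors and kinases and 1 among NF-kappaB targets. Deviations from the diet means correlated at -0.012, 0.036 and 0.0999 between arrays numbered 1, 2 and 3 in both diets. Between arrays of unlike number the correlations were -0.085 to 0.079. So few values cannot show whether arrays of the same number belong together.

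With each array dropped the difference ranged from -0.67 to 0.046 for Tlr2, from -0.017 to 0.12 for Tlr4, from -0.52 to 0.13 for Ly96 and from -0.24 to 0.14 for Nfkbiz, which was 0.00049 after median centring. Scalings, array weights and dropped arrays were applied to single probe sets after seeing the data. There the second Nfkbiz probe set by mean gave 0.016 after cyclic loess and -0.13 to 0.045 with each array dropped, and the third gave -0.031 with array weights and -0.071 to 0.17 with each array dropped. Birc3 was at -0.030 with probe sets without a suffix and Alb at -0.033 after cyclic loess. Over all tested genes the median difference moved by less than 0.1 under each scaling. Single genes moved by more under quantile normalization, among them Nfkbia (from 0.16 to 0.019) and Myd88 (from -0.70 to -0.84). The cause of these changes was not tested. Tlr4 lay near background, which limits what its difference can show.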

Other observations

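Markers of other liver cells were read in the same fit. Of 7 stellate cell and fibroblast markers 3 (Lrat, Col3a1 and Dcn) rose, 0 fell and 4 were not called (limma, n = 3 arrays per diet), with a mean log2 level of 6.47 to 6.66 under the normal diet and 7.02 to 7.52 under the high-fat diet. Of 7 sinusoidal endothelial markers 1 (Lyve1) rose, 0 fell and 6 were not called, at 6.67 to 6.88 against 7.10 to 7.21. Of 7 tested lymphocyte markers 0 were called, at 5.07 to 5.22 against 5.06 to 5.09, and Ms4a1 and Ncr1 were below the level filter.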
